A study of Mus musculus with 3 samples.

Results

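The KO-actin line was derived from mouse embryonic fibroblasts (MEFs) that lack their own β-actin and carry instead a β-actin fused to a nuclear localization signal (NLS). All 3 libraries of polyadenylated RNA carried the genotype label Beta-actin KO-NLS, so knockout and NLS-tagged protein were common to every sample. No wild-type or knockout library was analysed here, and no age, passage, clone number or promoter of the NLS construct was given in the sources used. The labels do not say whether the replicates came from separate cultures, and the p-values below refer only to these 3 libraries. They compare either the spread between libraries with counting error or the direction of a ratio across libraries. The genes described here are 10 members of the insulin-like growth factor (IGF) system chosen by symbol among the 46603 Ensembl genes counted, namely Igf1, its receptor Igf1r, the insulin receptor Insr, the binding proteins Igfbp2 to Igfbp7, and the protease Pappa.

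The fibroblast label was checked against 10 markers, of which 9 were above 3 counts in every library, the number that a count of 0 allows. Passing this limit shows detection only, and the levels were uneven. Vim, a mesenchymal intermediate filament gene, had the highest level of the 10 with 4563 CPM (counts per 1000000 of the scaled library size). The collagen gene Col1a1 had 4058 CPM, but Pdgfra had 4.97 CPM and Thy1 0.836 CPM. Of the 10 markers, 7 had a mean of at least 1 CPM. Lum had 0 counts in each library and Dcn 8, 8 and 6, so that both small proteoglycan genes typical of many fibroblasts were at or near the limit. Muscle, bone and fat markers were also read, since these lineages make IGF1 and binding proteins. Of 6 skeletal muscle markers 5, among them Myod1 and Myog, had 0 counts in each library, and 1, Des, was above the limit. Of 5 osteoblast markers 2 were above it, with Runx2 at 52.0 CPM but Sp7 at 3, 4 and 3 counts. Of 6 adipocyte markers 3 were above it, namely Lpl at 50.4 CPM, Pparg at 38.1 CPM and Fabp4 at 15, 6 and 10 counts. Adipoq had 0, 0 and 1 counts. The libraries held 44383636 to 49932446 counts.

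IGF1 is a small secreted hormone that resembles proinsulin and drives growth and survival through IGF1R, a receptor tyrosine kinase closely related to the insulin receptor. Outside the cell most IGF is held by IGF-binding proteins, which prolong its life and keep it from the receptor. PAPPA is a secreted metalloprotease that cleaves some of them, IGFBP4 best known among them, and so frees IGF. IGFBP7 is a relative that carries the same type of cysteine-rich domain but binds IGF weakly, and it is known as a secreted matrix and vessel-associated protein.

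The binding proteins are shown first by the sequence that makes them a family. Near the amino end of the protein most of them hold a stretch of glycine, cysteine, glycine and a pair of cysteines, followed after a short spacer by another cysteine. The 24 bases that encode this stretch were read from the GENCODE M21 coding sequences and are printed 5′ to 3′ with the cysteine codons in capitals.
Igfbp2: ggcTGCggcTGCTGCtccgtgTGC
Igfbp3: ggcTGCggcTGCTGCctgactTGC
Igfbp4: ggcTGCggtTGTTGCgccactTGC
Igfbp5: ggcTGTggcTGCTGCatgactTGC
Igfbp7: gcgTGCgggTGCTGCccggtgTGT
The stretch covers codons 67 to 74 of Igfbp2, 68 to 75 of Igfbp3, 52 to 59 of Igfbp4, 51 to 58 of Igfbp5 and 56 to 63 of Igfbp7. In Igfbp7 the first glycine codon was replaced, so that 1 of the 2 glycine positions held glycine. The coding sequence of Igfbp6 held no run of codons with these 4 cysteines, and it had the fewest cysteine codons of the binding proteins, 16 against 18 to 20 in the others. Despite the shared domain, no stretch of 50 bases was identical between any 2 of these binding protein mRNAs, and the longest identical run was 33 bases, between Igfbp2 and Igfbp3. Igf1r and Insr shared at most 43 identical bases. Windows of 50 bases that also occur in transcripts of other genes made up 2.99% of the Igfbp4 mRNA, 2.43% of Igfbp7, 0.344% of Insr and 0.255% of Pappa, and 0% of the other 6 members. With windows of 100 bases the share was 0% for all 10.

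Igfbp7 was by far the most abundant member, in CPM and per kilobase. Its raw counts were 18526, 21342 and 16278 for replicates 1 to 3, or 371, 433 and 364 CPM. Replicate 2 was the highest and the other replicates lay close together. Divided by the 1.21 kb that its exons cover, this was 322 ± 31.3 CPM per kilobase (SD, n = 3), rank 90 among the 13770 tested genes that had an annotated length, with genes ordered by level per kilobase. The median of all genes tested was 5.88 CPM per kilobase. The gene occupies bases 77349240 to 77408041 of chromosome 5 (GRCm38, minus strand), with 6 exons in its longest transcript. Its last 85 exonic bases, 7.03% of its exon length, overlap the end of Polr2b on the opposite strand, a gene with 191 ± 7.41 CPM (SD, n = 3). Whether counting used the strand is not given in the sources used here, so reads in this short overlap may have been assigned to either gene or dropped.

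Because IGFBP7 is abundant in endothelium, markers of that cell type were read in the same libraries. Of 6 endothelial markers 3 were above 3 counts in every library, and their summed level ranged from 4.75 to 5.50 CPM. Nearly all of it came from Vwf (2.70 CPM), encoding von Willebrand factor, and Kdr (2.09 CPM), a receptor for vascular endothelial growth factor. Pecam1, encoding an adhesion molecule of endothelial junctions, had 6, 5 and 6 counts, and Cdh5, the endothelial cadherin, had 0, 0 and 1. The part of such cells in the Igfbp7 level was not tested beyond these values. In RNA from a whole culture, fewer cells of a type and less RNA per cell cannot be told apart.

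Per kilobase Igfbp2 was the second most abundant binding protein and the only other member above the median of the genes tested. It had 28.3, 36.3 and 29.2 CPM, from 1414, 1787 and 1306 counts. Replicate 2 was again the highest. Per kilobase this was 16.9 ± 2.35 CPM (SD, n = 3). Igfbp7 exceeded it 19.1 ± 0.887-fold (SD, n = 3) per kilobase, between 18.2-fold and 20.02-fold in the single libraries. The difference was far larger than the spread between replicates, while the two-sided p from exact sign-flip permutation was 0.25, the smallest that 3 libraries allow.

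Igfbp6, which encodes the binding protein known to prefer IGF2 over IGF1, had 3.47, 4.34 and 3.83 CPM from 173, 214 and 171 counts. It lies on chromosome 15 from 102144362 to 102149511 on the plus strand. On its short exon length of 1.11 kb this came to 3.49 ± 0.396 CPM per kilobase (SD, n = 3), above Igfbp3 and Igfbp4 in every library. Igfbp3, on the minus strand of chromosome 11 from 7206086 to 7213923, encodes the main IGF carrier of serum and had 2.50, 2.58 and 2.24 CPM, or 0.780 ± 0.0570 CPM per kilobase (SD, n = 3). Igfbp4, the best known PAPPA substrate, lies on the plus strand of the same chromosome from 99041244 to 99054392 and had 2.10, 2.70 and 3.00 CPM, or 0.589 ± 0.103 CPM per kilobase (SD, n = 3). In CPM the 3 genes were thus expressed at a low level in all libraries, where the median of the genes tested was 27.5 CPM. Per kilobase the range of Igfbp6 overlapped that of Insr.

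Igfbp5 stood at the edge of detection. It had 10, 9 and 2 counts, of which the last is below the limit of 3 counts that a count of 0 allows (0.0671 CPM in replicate 3). Its mean was 0.143 ± 0.0852 CPM (SD, n = 3). Igfbp1, a binding protein of liver that is not among the 10 members, had 0 counts in each library. Relatives of the family were at the limit too, with 0, 2 and 0 counts for Igfbpl1 and 0, 0 and 3 for Igfals, which encodes the subunit that joins IGFBP3 and IGF in serum.

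Computed per kilobase and as a share of the summed level of Igfbp1 to Igfbp7, Igfbp7 made up 93.7% ± 0.25 (SD, n = 3), Igfbp2 4.91% ± 0.215 and Igfbp6 1.01% ± 0.0576. Igfbp3 held 0.227% ± 0.0157, Igfbp4 0.172% ± 0.0343 and Igfbp5 0.00682% ± 0.00406. When Igfbp7 was set aside, since it binds IGF weakly, Igfbp2 made up 77.6% ± 0.978 (SD, n = 3) of the remaining level and Igfbp6 16.0% ± 0.558. The composition varied little between libraries, with 93.5% to 94.0% for Igfbp7.

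**Figure D1:**
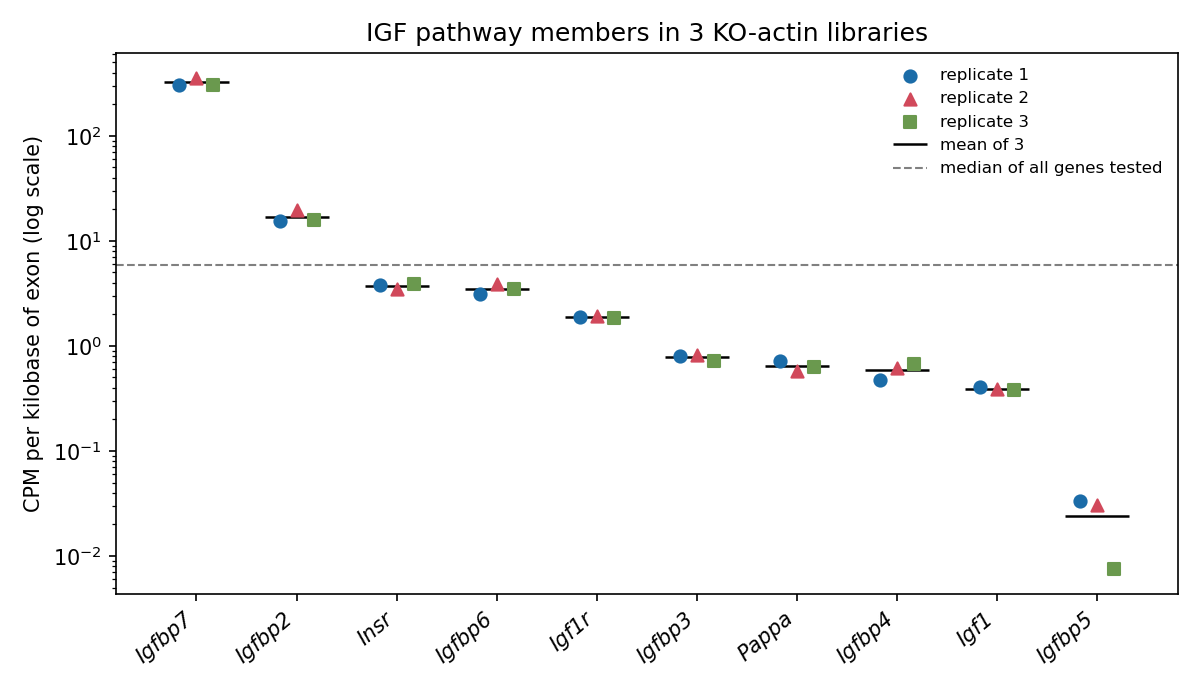
Level of each of the 10 members in CPM per kilobase of exon on a log axis, with 1 symbol per library, a bar at the mean of 3 and a dashed line at the median of all genes tested (5.88 CPM per kilobase). Igfbp7 (322) and Igfbp2 (16.9) lie above the dashed line, the other 8 lie below it, and the lowest point of Igfbp5 rests on 2 counts.

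Igfbp2 and Igfbp5, far apart in level, are neighbours in the genome. Igfbp2 lies on chromosome 1 from 72824503 to 72852474 on the plus strand, and Igfbp5 on the same chromosome from 72857932 to 72874884 on the minus strand. The genes point towards each other, their ends are 5.46 kb apart and 0 annotated genes lie between them. Summed over the libraries, Igfbp2 had 4507 counts and Igfbp5 21, a ratio per kilobase of 698 with an exact 95% interval of 456 to 1129 that covers counting error only. The nearest protein-coding gene beyond Igfbp2 is Rpl37a, a ribosomal protein gene with 130 ± 6.79 CPM (SD, n = 3). Beyond Igfbp5 it is Tnp1, a spermatid gene with 0 CPM. Igfbp1 and Igfbp3 form a similar pair on chromosome 11, with 3.54 kb and 0 genes between them, and Igfbp3 alone of these was detected.

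**Figure D2:**
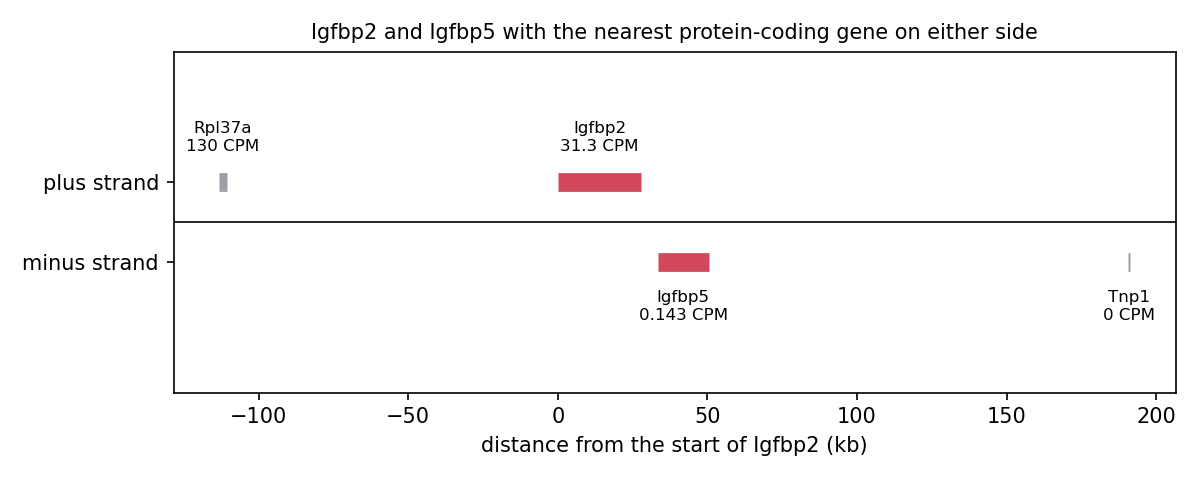
Map of the Igfbp2 and Igfbp5 locus with distance from the start of Igfbp2 in kb on the horizontal axis, the strand on the vertical axis and the mean CPM of 3 libraries under or over each gene. Igfbp2 (31.3 CPM) and Igfbp5 (0.143 CPM) are neighbours, and the flanking genes Rpl37a (130 CPM) and Tnp1 (0 CPM) lie much farther away.

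The promoters of the highest, the second and the lowest binding protein are shown because their levels span the whole range of the members. RefSeq promoters of 300 bases (GRCm38.p6) were matched for 8 of the 10 members, and the first of 2 entries is shown for Igfbp2. Each is printed 5′ to 3′ on the strand of the gene, and capitals mark the motif GGGCGG, a GC box, searched on both strands together with TATAAA and CCAAT.
Igfbp7, chr5:77407996-77408295, minus strand: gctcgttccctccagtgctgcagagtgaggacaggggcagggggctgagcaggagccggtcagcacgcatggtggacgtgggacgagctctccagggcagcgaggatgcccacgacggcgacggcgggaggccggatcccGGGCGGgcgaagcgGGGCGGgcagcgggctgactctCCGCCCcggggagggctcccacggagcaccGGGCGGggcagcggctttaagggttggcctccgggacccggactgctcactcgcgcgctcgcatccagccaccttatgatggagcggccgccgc
Igfbp2, chr1:72824230-72824529, plus strand: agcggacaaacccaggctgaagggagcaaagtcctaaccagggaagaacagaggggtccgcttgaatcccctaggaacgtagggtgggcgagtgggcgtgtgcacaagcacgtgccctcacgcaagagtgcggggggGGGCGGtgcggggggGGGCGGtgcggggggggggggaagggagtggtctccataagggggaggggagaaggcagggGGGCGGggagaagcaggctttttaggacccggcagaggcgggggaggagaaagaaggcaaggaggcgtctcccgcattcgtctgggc
Igfbp5, chr1:72874816-72875115, minus strand: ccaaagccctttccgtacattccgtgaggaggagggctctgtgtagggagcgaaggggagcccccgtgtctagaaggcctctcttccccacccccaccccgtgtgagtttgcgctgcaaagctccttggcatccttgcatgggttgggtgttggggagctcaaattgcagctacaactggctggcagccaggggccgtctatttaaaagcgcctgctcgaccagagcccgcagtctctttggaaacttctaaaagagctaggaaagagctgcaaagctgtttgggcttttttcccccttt
The Igfbp7 promoter held 33 CpG dinucleotides and 4 GC boxes, the Igfbp2 promoter shown 18 CpG and 3 GC boxes, and the Igfbp5 promoter 10 CpG and 0 GC boxes. Over all 32851 promoters of this length the median was 7 CpG, and 35.7% held at least 1 GC box. TATAAA occurred in 13.6% and CCAAT in 37.4% of all promoters and neither was found in these 3. The second Igfbp2 entry held 14 CpG and 0 GC boxes. The order did not extend to every member, since the Igf1r promoter held 48 CpG and the Igfbp3 promoter 37 at far lower mRNA levels. These matches describe letters in a window and not binding.

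Igf1 was the only ligand above 3 counts in every library, at a low level. It had 200, 188 and 169 counts, or 4.01, 3.81 and 3.78 CPM, with no difference between libraries detectable beyond counting error. Igf1 lies on chromosome 10 from 87858265 to 87937042, and its exons cover 9.90 kb, so that its level per kilobase was 0.391 ± 0.0123 CPM (SD, n = 3), lower than that of every member except Igfbp5. Igf2, which encodes the main fetal IGF, had 2, 2 and 7 counts and passed 3 counts in replicate 3 alone. Of the 5723 exonic bases of Igf2, 3694 (64.5%) also belong to exons of Gm49394 or Igf2os, while 0% of those of Igf1 overlap another gene. Igf2os had 0 counts in each library, and Gm49394 was not analysed here. Reads in the overlap may have been dropped in counting, which was not tested, so no ratio of Igf1 to Igf2 is given. The insulin genes Ins1 and Ins2 had 0 counts in each library. Liver and macrophages are known sources of Igf1. Among their markers Alb had 0, 0 and 3 counts and Ptprc, the leukocyte phosphatase CD45, 0, 1 and 0. Of the 6 macrophage markers 2 were above 3 counts in every library, Cd68 and Csf1r, the latter with 16, 6 and 11 counts. The summed level ranged from 7.51 to 10.3 CPM, nearly all of it Cd68 at 8.57 CPM, a lysosomal protein. Of 6 hepatocyte markers 1 was above 3 counts in every library, Ttr, and the summed level was at most 0.260 CPM.

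Per kilobase the summed level of the binding proteins exceeded that of Igf1 by a wide margin, mostly through Igfbp7 and Igfbp2. The single levels of Igfbp6 (3.49), Igfbp3 (0.780) and Igfbp4 (0.589 CPM per kilobase) were closer to that of Igf1 (0.391). Igfbp5 and Igfbp1 lay below Igf1. The summed level of Igfbp1 to Igfbp6 was 48.9, 64.9 and 54.1 times that of Igf1 in the 3 libraries, a mean of 56.0 ± 8.19 (SD, n = 3). With Igfbp7 included the ratio was 882 ± 99.4 (SD, n = 3). Each was above 1 in 3 of 3 libraries, and exact sign-flip permutation gave 0.25 as the two-sided p for both.

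Both signalling receptors were expressed, Insr above Igf1r. Insr, on chromosome 8 from 3122061 to 3279617, had 52.0, 48.0 and 52.9 CPM. Igf1r, on chromosome 7 from 67952827 to 68233668, had 31.9, 32.6 and 31.1 CPM, with no difference between libraries detectable beyond counting error. Per kilobase of exon Insr reached 3.71 ± 0.191 CPM and Igf1r 1.90 ± 0.0448 CPM (SD, n = 3), without overlap between the libraries of the genes. Insr was 1.99-fold, 1.80-fold and 2.08-fold above Igf1r, a log2 ratio of 0.97 ± 0.11 (SD, n = 3) with an exact two-sided sign-flip permutation p of 0.25. The counts are per gene and do not separate the spliced forms of the insulin receptor, of which the shorter also binds IGF2. Igf2r, the mannose-6-phosphate receptor that takes up IGF2 without signalling through a kinase and is not among the 10 members, had 144 ± 4.08 CPM (SD, n = 3). It stood 8.15 ± 0.247-fold (SD, n = 3) above Igf1r per kilobase. Insrr, the insulin receptor-related receptor, had 0, 3 and 0 counts.

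Pappa, on chromosome 4 from 65124174 to 65357509, had 7.97, 6.37 and 6.98 CPM from 398, 314 and 312 counts. Replicate 1 was the highest. Its 22 exons cover 11.0 kb, and its level per kilobase of 0.645 ± 0.0733 CPM (SD, n = 3) was not separated from that of its substrate Igfbp4. The ratio of Pappa to Igfbp4 per kilobase was 1.52, 0.945 and 0.932, on both sides of 1, with a two-sided p of 1.0 by exact sign-flip permutation. Pappa2, encoding the related protease, had 9, 11 and 5 counts. Of the stanniocalcins, secreted inhibitors of PAPPA, Stc1 was below the limit with 1, 0 and 0 counts. Stc2 was low but above the limit in every library, with 14, 12 and 21 counts. Summed over libraries the ratio of Pappa to Stc2 per kilobase was 10.2, with an exact 95% interval of 7.63 to 14.0 for counting error. Of other proteases known to cleave binding proteins, Htra1 had 172 ± 5.07 CPM and Adam12 29.5 ± 1.91 CPM (SD, n = 3). Per kilobase Htra1, a secreted serine protease, was 93.5 ± 13.1-fold and Adam12 4.35 ± 0.211-fold above Pappa (SD, n = 3).

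In order of level per kilobase the members were Igfbp7, Igfbp2, Insr, Igfbp6, Igf1r, Igfbp3, Pappa, Igfbp4, Igf1 and Igfbp5. Of the 9 pairs of neighbours 6 had ranges over the 3 libraries that did not overlap. The ranges of Insr and Igfbp6, Igfbp3 and Pappa, and Pappa and Igfbp4 overlapped. Within libraries Igfbp3 was above Pappa in 3 of 3, by 1.11-fold to 1.42-fold. Insr was above Igfbp6 in 2 libraries and Pappa above Igfbp4 in 1, so these 2 pairs were not separated. An exact sign-flip permutation test over the libraries could not go below 0.25 for any pair. After Benjamini-Hochberg adjustment over the 9 pairs the smallest value obtained was 0.321. Of these pairs Pappa and Igfbp4 turned with another exon length, and Pappa and Igfbp4 as well as Insr and Igfbp6 turned without replicate 1. With the length of the longest transcript in place of all exons, Igfbp4 (0.679) passed above Pappa (0.645) in CPM per kilobase, and without replicate 1 Igfbp6 passed above Insr by 3.67343 to 3.67097 and Igfbp4 above Pappa by 0.645 to 0.606.

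The level of several members varied between the libraries of this single condition. Each gene's counts were compared with counting error by a chi-square test with Benjamini-Hochberg adjustment over all 13814 genes that had at least 10 counts in every library. Of the members 9 were tested and 5 varied at an adjusted p threshold of 0.05. Over all genes tested 43.9% did so. Igfbp7 had an adjusted p of 2.62e-75 and Igfbp2 one of 3.23e-12, both with replicate 2 highest. Insr had an adjusted p of 0.00505 with replicate 2 lowest, and Pappa one of 0.0272, likewise with replicate 2 lowest. Igfbp4 was close to the threshold with 0.0492, and its lowest value was replicate 1. Igf1, Igf1r, Igfbp3 and Igfbp6 had adjusted p-values of 0.870, 0.535, 0.636 and 0.148. The test detects smaller differences at higher counts, so these p-values do not rank the spread. The SD as a percentage of the mean CPM (n = 3) was 17.5% for Igfbp4, 13.9% for Igfbp2 and 11.4% for Pappa. Igfbp7 had 9.72% and Insr 5.16%. Among the members not called it was 11.4% for Igfbp6, 7.32% for Igfbp3, 3.14% for Igf1 and 2.37% for Igf1r. Igfbp5 had too few counts to be tested.

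The calls depended on single libraries. Without replicate 2, 0 of the 9 members varied in the same chi-square test, in which 12.5% of 14037 genes did, and 1 member, Igfbp4, had an unadjusted p under 0.05 (adjusted p of 0.0501). Without replicate 1 the count was 3, with Igfbp4 (adjusted p of 0.570) and Pappa (0.436) lost, where 33.1% of all genes tested varied. Without replicate 3 it was 4, with Igfbp4 lost (0.129), where 34% did. The GC content of the longest transcript moved with the direction of replicate 2. Igfbp2 (62.1% GC), Igfbp6 (60.7%) and Igfbp7 (58.8%) were higher in replicate 2 than in the mean of the others by 0.33, 0.25 and 0.24 on the log2 scale. Igfbp4 (55.05% GC), Igfbp3 (52.5%) and Igf1r (49.4%) had smaller values of 0.08, 0.12 and 0.05. Insr (46.8% GC) and Pappa (46.1%) had values of -0.13 and -0.23, and Igf1, with the lowest GC content (38.0%), had -0.03. The size of the difference thus did not follow GC content strictly. Over all genes tested the median of this difference was -0.15 for the 806 genes below 40% GC and 0.17 for the 633 genes of at least 60%. When library sizes were set within 50 bins of GC content, Igfbp2 (adjusted p of 0.0190) and Igfbp7 remained among the calls of the chi-square test. Insr (0.112), Igfbp4 (0.0677) and Pappa (0.114) did not, while 29.9% of all genes tested varied. All 5 of these members still had an unadjusted p under 0.05 in that test.

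**Figure D3:**
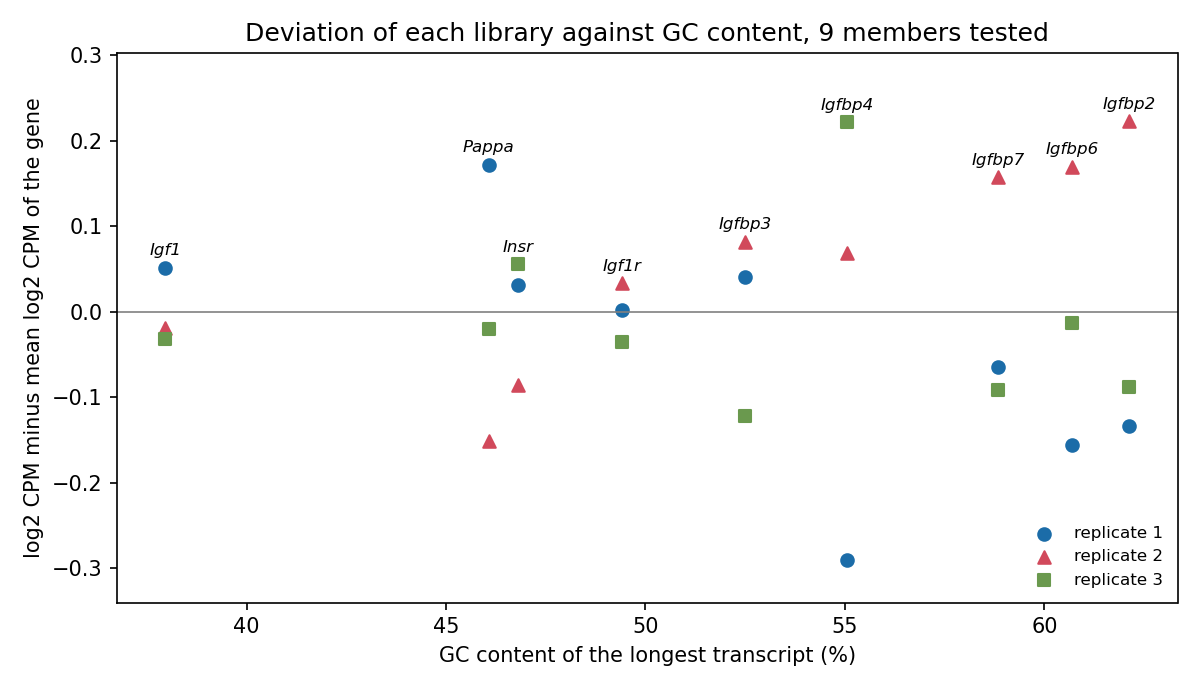
Log2 CPM of each library minus the mean over 3 libraries, on the vertical axis, against the GC content of the longest transcript in percent for the 9 members tested. Replicate 2 (triangles) lies above 0 for the 3 members of highest GC content, Igfbp7, Igfbp6 and Igfbp2, and below 0 for Igf1, Pappa and Insr.

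Downstream of the receptors nearly all components were expressed. Of a list of 60 IGF pathway genes that includes the 10 members, 48 had a mean of at least 1 CPM and 50 more than 3 counts in every library. All 22 genes of the PI3K, AKT and FOXO list had at least 1 CPM, with 25.6 CPM for Pik3cd, a catalytic PI3K subunit best known from leukocytes, and 332 ± 20.98 CPM (SD, n = 3) for the kinase gene Akt1. Per kilobase the list ran from 3.40 ± 0.1705 CPM for Rictor, a component of mTOR complex 2, to 81.0 ± 5.12 CPM for Akt1 (SD, n = 3). Among 8 receptor substrates and adaptors 7 had at least 1 CPM. Per kilobase the highest was Grb2, the adaptor that links receptors to RAS, with 47.0 ± 1.497 CPM (SD, n = 3). Grb10, an adaptor that dampens insulin and IGF1 receptor signalling, had 29.0 ± 0.417 CPM per kilobase (SD, n = 3), and the exception was Irs4 with 0, 0 and 3 counts. Of the 49 listed genes tested 27 varied between libraries in the chi-square test, 55.1%, beside 43.9% of all genes tested, and the 40 tested that are not among the members gave 22. Outside the ligands, receptors, binding proteins and proteases, the only listed gene with a mean under 1 CPM was Irs4.

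**Figure D4:**
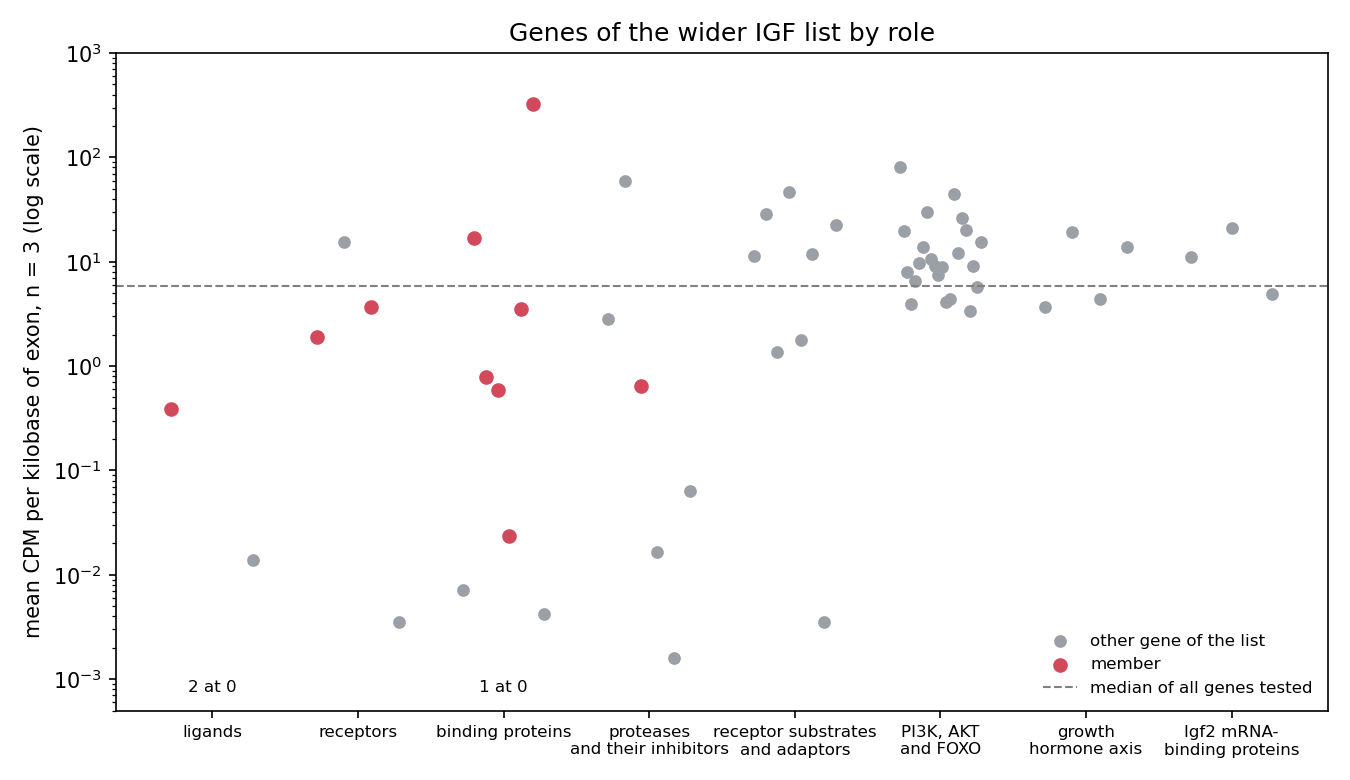
Mean CPM per kilobase of exon over 3 libraries on a log axis for the 60 genes of the wider list, by role, with the 10 members in red, other genes in grey and a dashed line at the median of all genes tested. Binding proteins spread from 0 counts (Igfbp1) to 322 CPM per kilobase (Igfbp7), while every gene of the PI3K, AKT and FOXO list lies at or above 3.40.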

How the data were processed

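RNA-Seq of polyadenylated RNA from 3 KO-actin libraries was analysed. For each library the deposited file holds whole-number read counts by Ensembl identifier, which were not normalized. The submitters' processing notes name Trimmomatic, FastQC, HISAT2 and HTSeq and the builds mm10 and GRCm38. The annotation release, strand setting and treatment of reads matching several genes are not given in the sources used here, which bears on overlapping genes.

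Symbols matched 46005 of 46603 identifiers. Exon lengths, positions and GC content came from GENCODE M21 on GRCm38, and promoters from RefSeq on GRCm38.p6. Library sizes (44383636 to 49932446 counts) were scaled by the TMM method (edgeR 4.0.16, R 4.3.3). The alternatives were unscaled totals and the size factors of DESeq2 1.42.0. Levels of different genes were ranked as CPM per kilobase of the union of exons. A count of 0 allows up to 3 counts, and this limit and the intervals cover counting error only.

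As only 1 condition is labelled, no contrast was fitted. Variation between libraries was tested for genes with at least 10 counts in each, by a chi-square (2 degrees of freedom) adjusted after Benjamini and Hochberg. The script was checked on simulated data. Ratios were tested with an exact two-sided sign-flip permutation over libraries. Python 3.11.15 was used with scipy 1.17.1, pandas 2.3.3, numpy 2.4.6 and matplotlib 3.10.9.

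Members, gene lists and tests were chosen with earlier results of these data known. Named were all members, every ligand, receptor, binding protein and protease of the wider list, and the extremes of the other lists by mean CPM. Flanking genes, the gene overlapping Igfbp7, Ghr, Igf2bp1, Grb2, Rictor and single markers were named after their values were seen. Promoters of Insr and Pappa were not used here.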

Additional observations from a re-analysis of the deposited data

How the results depend on the processing

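No paired analysis was possible because the libraries form a single group. The number of members varying beyond counting error, 5 with all libraries (43.9% of all genes tested), ranged from 0 to 4 when 1 replicate was left out (12.5% to 34%). It was 2 within 50 bins of GC content (29.9%). With counts thinned at random to the smallest library total it was 4 (42.3%), with Pappa lost (adjusted p of 0.1405, chi-square test). With no count filter it was 4 (25.9%), with Igfbp4 lost (0.0744). The number of genes varying, 6063 with all libraries, ranged from 1748 to 4786 when 1 replicate was left out, lowest without replicate 2, and was 4118 within GC bins. The share of Igfbp7 in the summed level of Igfbp1 to Igfbp7 was 91.8% with the longest transcript as length, against 93.7%, by construction of the lengths used. Under the same choice the share of Igfbp2 rose to 6.75% and that of Igfbp3 to 0.286%.

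In the order per kilobase, 8 of 9 pairs of neighbours kept their direction with the longest transcript, 7 without replicate 1 and 9 without replicate 2 or 3. The ratios of summed counts given for Igfbp2 to Igfbp5 and Pappa to Stc2 stayed within their intervals without any 1 replicate, an alternative chosen after seeing the data. These runs reuse counts that gave the intervals, so they say little about single libraries. In replicate 3 alone the ratios per kilobase were 2123 for Igfbp2 to Igfbp5 and 6.97 for Pappa to Stc2, outside the intervals. In replicates 1 and 2 they lay inside. Other scalings moved the mean CPM of a member by at most 0.216%. For Igfbp5 and Pappa2, with counts near 3, the depth limits precision.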

Other observations

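The 3 Igf2 mRNA-binding proteins, which bind Igf2 and other transcripts and are best known from fetal tissue, were expressed. Igf2 itself had 2, 2 and 7 counts, with 64.5% of its exonic bases shared with other annotated genes. Igf2bp2 had 156 ± 1.93 CPM, Igf2bp1 108 ± 1.31 CPM and Igf2bp3 40.3 ± 1.57 CPM (SD, n = 3), and in the chi-square test 0 of the 3 varied between libraries at an adjusted p threshold of 0.05 (0 also at an unadjusted p under 0.05), beside 43.9% of all genes tested. Of the exonic bases of Igf2bp3, 18.7% overlap Malsu1. The 4 listed genes of the growth hormone axis, which drives Igf1 in liver, all had more than 1 CPM. Ghr, the growth hormone receptor, had 33.0 ± 0.524 CPM and its kinase Jak2 96.8 ± 2.94 CPM (SD, n = 3), and Stat5a, a transcription factor gene, 31.0 ± 1.93 CPM (SD, n = 3). Per kilobase the lowest of the list was Ghr with 3.64 ± 0.0579 CPM (SD, n = 3).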
